A study of Mus musculus with 7 samples.

Results

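The mitosis and G2/M genes of the mouse uterus were followed after infusion of the chemokine CXCL12 into the uterine horn. Rows of the gene tables were taken by symbol from a fixed list of 42 genes, and all 42 were found among the 23282 named rows of each table. They were grouped by what their proteins do, namely entry into mitosis (7 genes), chromosome structure (2), the spindle checkpoint and activation of the anaphase-promoting complex (6), the chromosomal passenger complex (4), kinetochore and centromere (7), spindle assembly (9), and central spindle and cytokinesis (7). The list was drawn up by function, with no threshold on a measured value, but with earlier results of these data known. The number of its genes that passed a limit is therefore a description and no independent test. The study asked how CXCL12, infused into the uterus of 6-week-old female C57BL/6 mice, alters gene expression related to receptivity, with the saline-infused side as control. RNA of whole uterine tissue was read by 3′ mRNA sequencing, in which each transcript gives reads near its poly(A) tail. There were 2 saline libraries, 2 libraries from day 3 and 3 libraries from day 8 after CXCL12. Neither the day of the saline libraries nor the oestrous stage or the animal of origin is given in the labels, so that p-values measure the spread between these libraries, which may be technical. All horns, saline ones included, were infused.

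Cells enter mitosis when CDK1, bound to a B-type cyclin, becomes active. They leave it when the anaphase-promoting complex (APC/C) with its activator CDC20 marks cyclin B and securin for destruction, a step that the spindle checkpoint holds back until every kinetochore is attached. Most genes for these proteins are transcribed late in the cycle, when the MuvB complex together with B-MYB and FOXM1 acts on promoters with a cell-cycle genes homology region and CCAAT boxes bound by NF-Y, and their mRNAs are scarce in resting cells. In the rodent uterus oestrogen is known for waves of division in the epithelium, and progesterone for moving division to the stroma.

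Promoters of the group were inspected because its members moved together. Of the 42 genes, 35 had an entry in the RefSeq promoter table (build GRCm38.p6), which spans 250 bases before to 50 bases after a start site, and the first listed entry was used for each gene. The hexamer TTTGAA, the usual core of the cell-cycle genes homology region, was searched on both strands and was present in 26 of the 35, against 18.1% of 27025 promoters of all genes. The variant TTCGAA was present in 3 of the 35, against 1.57%. CCAAT was present in 26 of the 35, against 37.9% of all promoters, and 2 or more copies in 19, against 12.2%. The hexamer lay close to the start site. TTTGAA was found between 30 bases before and 50 bases after the start in 24 of the 35 promoters (3.79% of all promoters), whereas it was found between 120 and 31 bases before the start in 4 (5.89% of all promoters). CCAAT was found between 120 and 31 bases before the start in 19 of the 35 (19% of all promoters) and nearer the start in 15 (10.1%). These matches are descriptions of letters and not of bound factors. The 120 bases before the start site follow for those genes that carry the hexamer there among the genes with the highest mean CPM or the smallest P of their role group, 5′ to 3′ on the gene's strand, with TTTGAA or TTCGAA and CCAAT (read on either strand, as TTCAAA and ATTGG on the other) in capitals.
Cdk1, chr10:69352913-69353032, minus strand: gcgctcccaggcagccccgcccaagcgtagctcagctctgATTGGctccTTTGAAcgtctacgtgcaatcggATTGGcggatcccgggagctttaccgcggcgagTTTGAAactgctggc
Top2a, chr11:99024190-99024309, minus strand: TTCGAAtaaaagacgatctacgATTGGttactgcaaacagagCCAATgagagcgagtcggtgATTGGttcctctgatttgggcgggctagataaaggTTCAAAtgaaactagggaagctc
Ube2c, chr2:164769809-164769928, plus strand: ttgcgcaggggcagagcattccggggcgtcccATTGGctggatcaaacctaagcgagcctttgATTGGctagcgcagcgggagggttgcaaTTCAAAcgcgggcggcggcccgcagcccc
Cdc20, chr4:118437344-118437463, minus strand: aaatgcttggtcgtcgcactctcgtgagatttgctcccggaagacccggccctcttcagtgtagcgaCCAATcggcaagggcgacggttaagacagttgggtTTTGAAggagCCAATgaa
Ect2, chr3:27153879-27153998, minus strand: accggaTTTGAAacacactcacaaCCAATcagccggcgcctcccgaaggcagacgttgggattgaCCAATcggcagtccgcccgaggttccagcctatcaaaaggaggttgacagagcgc
The hexamer of Cdk1, Top2a, Ube2c and Cdc20 that lies nearest the start begins 15, 23, 29 and 18 bases before it, and that of Ect2 in this stretch 114 bases before it. All 5 stretches hold at least 2 copies of CCAAT. Mki67, described further on but chosen in another way, also carries TTTGAA in this stretch and is not printed.

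Several libraries stood apart before any comparison of groups. Totals were 6908790 and 9491691 counts for saline replicates 1 and 2, 9968909 for Day 3 replicate 2, and 9601312, 12308982 and 9941132 for Day 8 replicates 1 to 3. Day 3 replicate 1 was deposited as log2 of a normalised count plus 1, and undoing the logarithm gave a total of 11003222. Day 8 replicate 1 is labelled day 8, but the name of its table carries day 3. Over 14776 genes on the quantile-normalised log2 scale it correlated with the Day 3 libraries at r = 0.948 and 0.949, with saline replicate 2 at 0.943, with saline replicate 1 at 0.89, and with the other Day 8 libraries at 0.892 and 0.894. It was kept in the group of its label. Fold changes in the gene paragraphs include it, and the values without it are given beside the counts and in the paragraph on that library. The saline pair (r = 0.902) was less alike than the Day 3 pair (r = 0.975). Counts scaled to the library total (CPM) were not divided by transcript length, and the order of genes by CPM was used only to choose genes and to name the gene with the highest CPM of a list, called its most abundant.

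Transcripts of the group were abundant at Day 3, low in most of Day 8, and far apart in the saline pair. The 42 genes summed to 1412 CPM in saline replicate 1 and 4204 CPM in saline replicate 2. The sums were 3644 and 3397 CPM at Day 3, and 1533, 795 and 624 CPM in Day 8 replicates 1 to 3. The lower Day 3 sum was 2.22 times the highest Day 8 sum, and the mean at Day 3 (3521 ± 175, SD, n = 2) was 3.58 times that at Day 8 (984 ± 483, SD, n = 3), or 4.96 times the mean of Day 8 replicates 2 and 3. Saline replicate 2 exceeded saline replicate 1 by 2.98 times, so that the Day 3 sums lay between the saline libraries and the sum of saline replicate 1 lay below that of Day 8 replicate 1. With TMM scaling in place of totals, Day 3 replicate 1 (3914) came out above saline replicate 2 (3818) and Day 8 replicate 1 (1711.5) further above saline replicate 1 (1178). In bulk tissue, fewer dividing cells and less RNA of these genes per cell cannot be told apart.

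**Figure D1:**
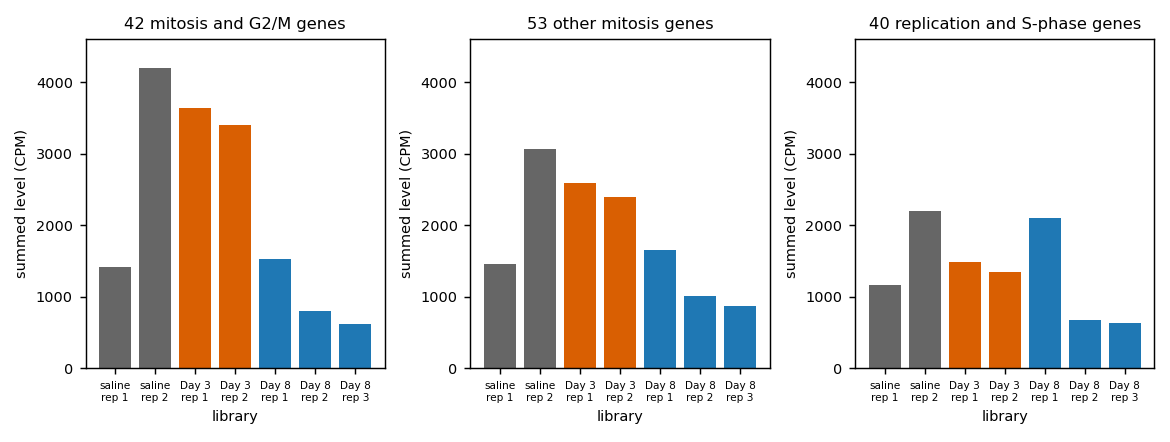
Summed level in CPM (y axis) of the 42 mitosis and G2/M genes, of 53 other mitosis genes and of 40 replication and S-phase genes, 1 bar per library (x axis; grey saline, orange CXCL12 Day 3, blue CXCL12 Day 8). The mitosis sums at Day 3 (3644 and 3397) exceed all 3 at Day 8, while the S-phase sum of Day 8 replicate 1 (2097) is above both at Day 3.

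The members shared this order almost gene by gene. Saline replicate 2 was above saline replicate 1 in 42 of 42 genes (46.2% of all genes tested), by 1.48 times for Incenp to 16.6 times for Nek2 in CPM (median 2.94 times). On the quantile-normalised log2 scale the highest library was saline replicate 2 for 28 genes, Day 3 replicate 2 for 8 and Day 3 replicate 1 for 6, and the lowest was Day 8 replicate 3 for 30. Each gene's correlation with the mean of the other 41 over the 7 libraries had a median of 0.962 and was lowest for Nek2 (0.816), 35 genes being above 0.9. These correlations are a description over 7 libraries that share their depth and scaling. None of the 42 was at 0 in any library, the smallest being 4 counts of Nek2.

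**Figure D2:**
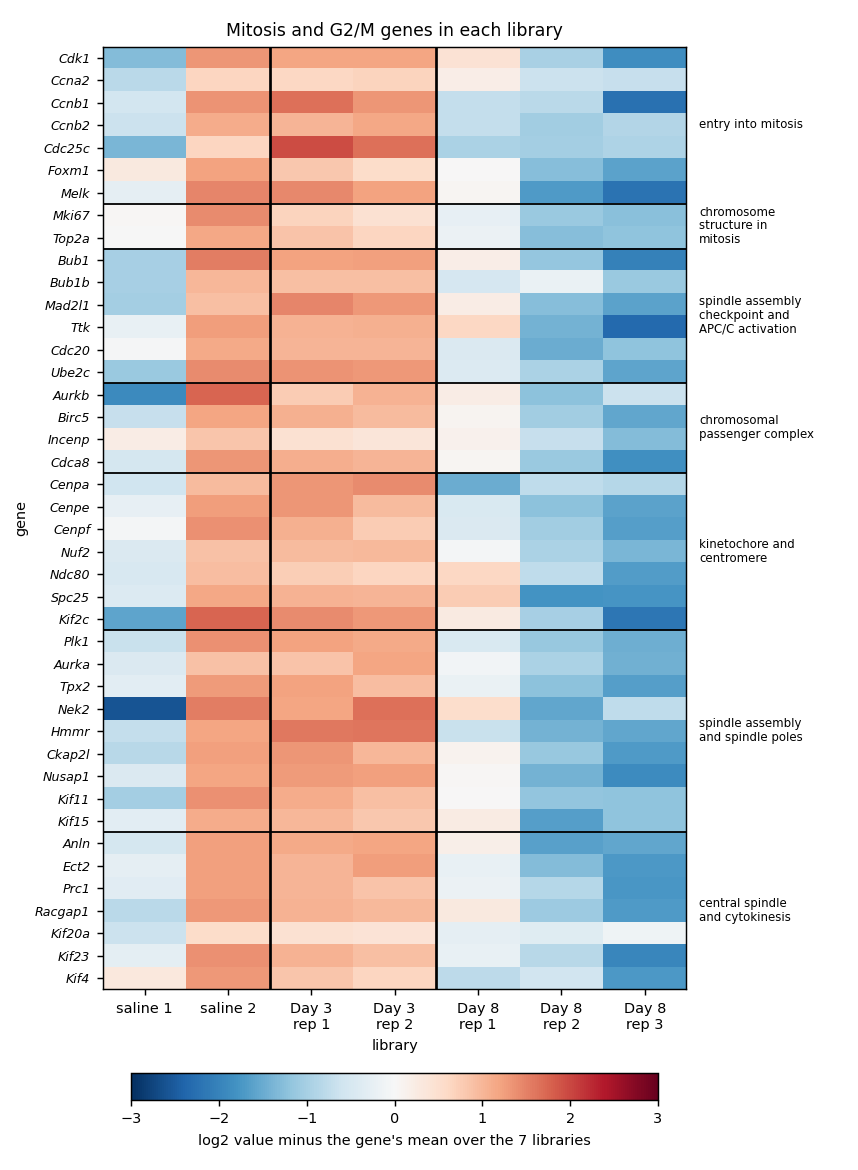
Each row is 1 of the 42 genes, grouped by role, and each column 1 library. Colour gives the quantile-normalised log2 value minus the gene's own mean over the 7 libraries (blue below, red above). Saline replicate 2 and both Day 3 columns are red in nearly all rows, Day 8 replicates 2 and 3 are blue, and Day 8 replicate 1 lies between.

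Between the time points the whole group was lower at Day 8. A gene was called when it changed at least 2-fold with P under 0.05, in limma on quantile-normalised log2(value + 1) of all 7 libraries, a scale on which the change of low genes is understated. By this rule 37 of 42 genes fell from Day 3 to Day 8 and none rose, where 2.39% of the 14776 genes tested fell and 2.24% rose. Both Day 3 libraries were above all 3 Day 8 libraries in 42 of 42 genes, against 16% of all genes tested. The median log2 fold change of the 42 was -1.99 (range -2.80 to -0.69), beside 0.0014 over all genes tested. The 5 genes not called were Ccna2, Aurkb, Ndc80, Nek2 and Kif20a. None of the 42, nor any other gene, passed an adjusted p of 0.1 in limma (smallest 0.267 over all genes, 0.558 in the group), 1062 genes had an unadjusted P under 0.05, and edgeR with counts estimated for Day 3 replicate 1 also gave 0 genes. Without Day 3 replicate 1 the count of genes lower fell to 20 (0.736% of all genes) and without Day 3 replicate 2 to 23 (1.03%). Without Day 8 replicate 1 it was 39, beside 5.62% of all genes lower, the median was -2.39, and 18 genes of the group passed the adjusted p, beside 3.32% of all genes.

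Against saline, the Day 8 levels were lower on average, and the number of genes that passed depended on which saline library was kept. The test here was edgeR's quasi-likelihood fit to the 6 tables of counts, and by it 18 of 42 genes fell and none rose, where 1.42% of 15388 genes tested fell and 1.53% rose. The median log2 fold change was -1.35 (range -1.86 to -0.35), all 42 being negative, beside -0.0078 over all genes. The labels do not pair libraries. With the replicate number as a block, 2 of the 42 genes fell and the median was -0.89. All genes called in either direction then numbered 157, compared with 453 without the block. Without saline replicate 2 the median was -0.22, and 7 of the 19 members followed, among them Cdk1 (0.89) and Kif20a (0.39), then had positive values. On the quantile-normalised scale all 3 Day 8 libraries were below both saline libraries in 11 of 42 genes, against 9.49% of all genes, and Day 8 replicates 2 and 3 were so in 33, against 21.4%. Day 8 replicate 1 was above saline replicate 1 in 31 of 42 genes on that scale (48.9% of all genes) and above saline replicate 2 in 0 (51.7%). In CPM all 3 Day 8 libraries were below both saline libraries in 20 of 42 genes, against 22.4% of all genes, and Day 8 replicate 1 was above saline replicate 1 in 20, against 33.2%. No gene passed the adjusted p of 0.1 (smallest 0.956), 658 had an unadjusted P under 0.05, and DESeq2 gave 49 genes, 0 of them in the group. The count of genes lower was 35 without saline replicate 1 (1.13% of all genes), 0 without saline replicate 2 (3.44%), and 30, 8 and 6 without Day 8 replicates 1, 2 and 3 (3.25%, 1.97% and 0.733% of all genes). For the genes described below as lower than in saline, the log2 fold change without saline replicate 2 was -0.51 for Ccnb1, -0.58 for Top2a, -0.80 for Mki67, -0.92 for Cdc20, -0.82 for Cenpf, -0.35 for Cenpa, -0.41 for Hmmr, -0.39 for Prc1, -0.62 for Ect2 and -1.22 for Kif4, each a smaller fall than with both saline libraries.

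With both saline libraries kept, fewer of the 42 genes passed at Day 3 (limma) than at Day 8 (edgeR), and their median change was smaller in size. Leaving out saline replicate 2 turned the order of these medians over, to 1.60 for Day 3 and -0.22 for Day 8. At Day 3, 3 of 42 genes rose in limma (Cdc25c, Cenpa and Hmmr) and none fell, where 1.87% of 14776 genes rose and 2.62% fell. The median log2 fold change was 0.75 (range -0.17 to 2.16), with 38 positive and 4 negative, beside 0.0075 over all genes. Its direction rested on the saline pair, since the median was -0.14 without saline replicate 1 and 1.60 without saline replicate 2, where 14 genes of the group and 16.1% of all genes passed the adjusted p. Both Day 3 libraries were above both saline libraries in 6 of 42 genes, against 24% of all genes tested, and between the saline libraries in 28, against 22.3%. With all 7 libraries none passed the adjusted p of 0.1 (smallest 0.622 over all genes), 1087 had an unadjusted P under 0.05, and edgeR with estimated counts gave 0 genes. The count of genes higher was 0 without saline replicate 1 or without either Day 3 library (0.721%, 0.457% and 0.469% of all genes), 1 without Day 8 replicate 2 or 3 (1.66% and 1.61%), and 23 without saline replicate 2 (10.3%). Without saline replicate 1 the log2 rise was 0.41 for Cenpa, 0.41 for Hmmr and 1.17 for Cdc25c, and without saline replicate 2 it was 1.96, 2.32 and 3.19. The comparisons share libraries in pairs (Day 8, saline or Day 3), and their fold changes are not independent.

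**Figure D3:**
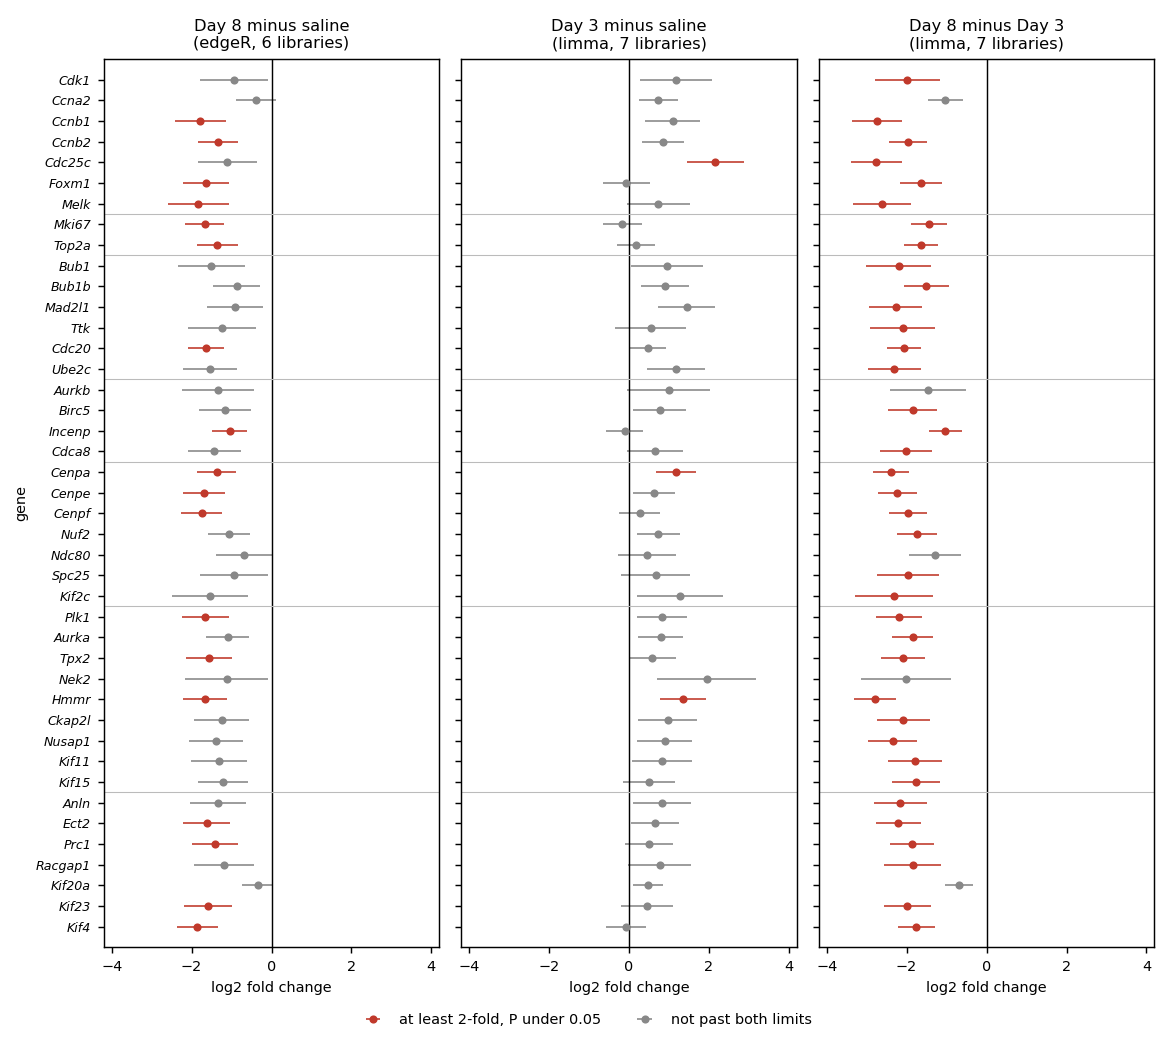
Log2 fold change (x axis) of each of the 42 genes (y axis, by role) in the 3 comparisons, as points with standard errors. Red points passed at least 2-fold and P under 0.05 (18 for Day 8 against saline, 3 for Day 3 against saline, 37 for Day 8 against Day 3), none the adjusted p.

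Among the genes for entry into mitosis, Cdk1, the kinase that drives the G2-to-M step, was at 73.5 and 409.5 CPM in saline, 386 and 375 CPM at Day 3, and 198, 77.5 and 42.9 CPM at Day 8. Day 3 and Day 8 did not overlap. The saline libraries enclosed both Day 3 libraries and Day 8 replicates 1 and 2, and Day 8 replicate 3 lay below them. Cdk1 fell 3.96-fold from Day 3 to Day 8 (log2 fold change -1.99 ± 0.82, SE, adjusted p = 0.692, limma), and its Day 8 difference from saline was -0.93 ± 0.85. Ccnb1, which encodes cyclin B1, was at 22.3 and 78.8 CPM in saline, 88.1 and 70.7 CPM at Day 3, and 15.1, 16.4 and 5.83 CPM at Day 8. All Day 8 libraries were below all others. It fell 6.71-fold from Day 3 to Day 8 (log2 -2.75 ± 0.63, adjusted p = 0.656) and 3.45-fold from saline (log2 -1.79 ± 0.64, adjusted p = 0.956, edgeR). Cdc25c, the phosphatase that activates CDK1 and a gene chosen after its values were seen, was at 1.01 and 3.79 CPM in saline, 7.45 and 6.32 CPM at Day 3, and 0.833, 1.14 and 0.905 CPM at Day 8. Its Day 3 libraries were above both saline libraries, and it rose 4.48-fold (log2 2.16 ± 0.70, adjusted p = 0.622). In all, 6 of the 7 entry genes fell from Day 3 to Day 8, Ccna2 (cyclin A2) being the exception, and 4 fell from saline.

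Both genes for chromosome structure fell in both Day 8 comparisons (2.39% of all genes fell from Day 3 and 1.42% from saline). Top2a encodes topoisomerase IIα, which disentangles sister chromatids, and was at 259 and 576 CPM in saline, 475 and 409.6 CPM at Day 3, and 208, 97.5 and 103 CPM at Day 8. Every Day 8 value was below every other value. The fall was 3.12-fold from Day 3 (log2 -1.64 ± 0.43, adjusted p = 0.656) and 2.56-fold from saline (log2 -1.35 ± 0.51, adjusted p = 0.956). Mki67, the Ki-67 proliferation marker and again chosen after its values were seen, was at 62.5 and 152 CPM in saline, 83.3 and 72.1 CPM at Day 3, and 39.4, 23.8 and 21.7 CPM at Day 8. Its Day 3 mean was not above saline (log2 -0.17 ± 0.49), and it fell 3.19-fold from saline to Day 8 (log2 -1.67 ± 0.49, adjusted p = 0.956).

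In the checkpoint and APC/C group all 6 genes fell from Day 3 to Day 8 (2.39% of all genes). Only Cdc20 passed against saline (1.42% of all genes lower). Ube2c, the ubiquitin-conjugating enzyme of the APC/C, was at 30.4 and 162 CPM in saline, 147 and 141 CPM at Day 3, and 37.9, 28.3 and 18.6 CPM at Day 8. The Day 3 libraries lay just under saline replicate 2 and the Day 8 libraries around saline replicate 1. It fell 4.94-fold from Day 3 to Day 8 (log2 -2.30 ± 0.67, adjusted p = 0.676). Its fall of 2.90-fold from saline missed the limit on P, and without saline replicate 2 its log2 fold change was 0.23. Cdc20, the APC/C activator, was at 23.4 and 49.2 CPM in saline, 39.3 and 40.9 CPM at Day 3, and 13.2, 7.39 and 8.85 CPM at Day 8. Here the Day 8 group lay below both other groups, and the gene fell 4.17-fold from Day 3 (log2 -2.06 ± 0.43, adjusted p = 0.656) and 3.11-fold from saline (log2 -1.63 ± 0.46, adjusted p = 0.956). The checkpoint kinases and their partners (Bub1, Bub1b, Mad2l1 and Ttk) fell from Day 3 to Day 8 by 2.84 to 4.84 times.

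The chromosomal passenger complex corrects faulty attachments and then guides cytokinesis. Birc5, which encodes its subunit survivin, was at 59.3 and 204 CPM in saline, 179.6 and 167 CPM at Day 3, and 79.7, 39.5 and 27.8 CPM at Day 8. Cdca8, which encodes borealin, was at 25.3 and 85.3 CPM in saline, 64.7 and 62.5 CPM at Day 3, and 28.6, 14.5 and 8.65 CPM at Day 8. In both genes Day 8 replicate 1 was above saline replicate 1 and below Day 3. Birc5 fell 3.62-fold from Day 3 to Day 8 (adjusted p = 0.687) and Cdca8 4.06-fold (adjusted p = 0.687), both by limma. Incenp, the scaffold, also passed, and Aurkb, the kinase, did not.

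Of the 7 kinetochore and centromere genes 6 fell from Day 3 to Day 8 and 3 from saline, beside 2.39% and 1.42% of all genes. Cenpf, a large kinetochore protein made in G2, was at 95.2 and 243 CPM in saline, 189 and 153 CPM at Day 3, and 58.5, 41.8 and 27.5 CPM at Day 8. Its Day 8 libraries were below both other groups, and it fell 3.91-fold from Day 3 (log2 -1.97 ± 0.47, adjusted p = 0.656) and 3.34-fold from saline (log2 -1.74 ± 0.51, adjusted p = 0.956). Cenpa, the histone H3 variant that marks centromeres, was at 20.3 and 56.9 CPM in saline, 64.3 and 69.6 CPM at Day 3, and 8.23, 15.8 and 14.5 CPM at Day 8. The 3 groups were fully ordered, with Day 3 above saline and saline above Day 8. Cenpa passed the 2-fold and P rule in all 3 comparisons. It rose 2.27-fold at Day 3 against saline (log2 1.18 ± 0.50, adjusted p = 0.622), fell 2.59-fold at Day 8 against saline (adjusted p = 0.956) and fell 5.28-fold between the time points (log2 -2.40 ± 0.45, adjusted p = 0.558), the last being the smallest P in the group. Its rise at Day 3 was not called with edgeR on estimated counts.

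Of the 9 spindle genes 8 fell from Day 3 to Day 8, beside 2.39% of all genes. Nusap1, which bundles spindle microtubules, was at 93.2 and 275 CPM in saline, 286 and 274 CPM at Day 3, and 105, 40.9 and 29.8 CPM at Day 8. It fell 5.12-fold between the time points (log2 -2.35 ± 0.62, adjusted p = 0.656). Hmmr, the hyaluronan-mediated motility receptor that also works at spindle poles, was at 25.6 and 88.9 CPM in saline, 107 and 111 CPM at Day 3, and 20.1, 13.7 and 12.1 CPM at Day 8. In CPM its groups were fully ordered like those of Cenpa, although Day 8 replicate 1 passed saline replicate 1 on the quantile-normalised scale. Hmmr passed the rule in all 3 comparisons, with a rise of 2.56-fold at Day 3 (adjusted p = 0.622), a fall of 3.17-fold at Day 8 against saline (adjusted p = 0.956) and a fall of 6.96-fold between the time points (log2 -2.80 ± 0.53, adjusted p = 0.558). Its rise at Day 3 was not called with edgeR on estimated counts either.

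Of the 7 central spindle and cytokinesis genes 6 fell from Day 3 to Day 8 and 4 from saline, beside 2.39% and 1.42% of all genes. Prc1, which crosslinks the antiparallel microtubules of the midzone, was at 49.2 and 138 CPM in saline, 111 and 100.6 CPM at Day 3, and 43.1, 29.2 and 16.3 CPM at Day 8. Ect2, the exchange factor that activates RhoA at the cleavage furrow, was at 13.2 and 36.3 CPM in saline, 26.0 and 31.9 CPM at Day 3, and 10.4, 5.85 and 4.02 CPM at Day 8. Both genes had Day 3 between the saline libraries and Day 8 below both, in CPM. From Day 3 to Day 8 Prc1 fell 3.65-fold (adjusted p = 0.681) and Ect2 4.62-fold (adjusted p = 0.656), and from saline 2.66-fold and 3.08-fold (adjusted p = 0.956 in both, edgeR). A pair of kinesins, chosen after their values were seen, marked the extremes of this group. Kif4, the chromokinesin, had the smallest P of the 42 against saline, with a fall of 3.62-fold (log2 -1.86 ± 0.52, adjusted p = 0.956). Kif20a, the motor that brings the passenger complex to the midzone, moved least of the 42 from Day 3 to Day 8, with 50.9 and 50.4 CPM at Day 3 against 28.3, 29.1 and 34.6 CPM at Day 8 (log2 -0.69 ± 0.34).

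Day 8 replicate 1 held an unequal share of the decline across genes. On a scale where the mean of Day 8 replicates 2 and 3 is 0 and the Day 3 mean is 1, in log2 values, its median position over the 42 genes was 0.54. It stood near Day 3 for 2 subunits of the NDC80 complex, which attaches microtubules, at 0.96 for Ndc80 and 0.90 for Spc25, whereas Nuf2, another subunit, was at 0.52. Spc25 was at 153 and 151 CPM at Day 3 and 111 CPM in this library, against 20.6 and 20.8 CPM in the other Day 8 libraries. It stood at or beyond the other Day 8 libraries for Cenpa (-0.31), Kif20a (-0.036) and Cdc25c (0.0049). These genes were chosen after their values were seen. On the quantile-normalised scale this library was the highest of Day 8 in 37 of 42 genes, so leaving it out enlarges most falls by construction. Without this library 16 of the 19 members followed fell further from Day 3. For Cdk1 (5.98-fold), Spc25 (7.03-fold) and Ndc80 (3.72-fold) the fold change grew by over 1.5 times. Spc25 and Ndc80 were chosen with their high values in this library known, and their growth restates those values. Against saline the fold change grew by over 1.5 times for Cdk1 (3.56-fold), Birc5 (3.45-fold), Cdca8 (4.22-fold), Nusap1 (4.58-fold), Spc25 (4.98-fold) and Ndc80 (2.84-fold), and Cenpa (2.24-fold) was no longer called.

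Genes of DNA replication went another way in that library. The 40 replication and S-phase genes, among them the Mcm helicase subunits, Pcna and Lig1, summed to 1161 and 2205 CPM in saline, 1486 and 1343 CPM at Day 3, and 2097, 675 and 629 CPM at Day 8. Day 8 replicate 1 thus had an S-phase sum close to that of saline replicate 2 and above both Day 3 libraries, with a mitosis sum below both. On the quantile-normalised scale it exceeded both Day 3 libraries in 36 of the 40 S-phase genes and in 0 of the 42 mitosis genes (41.2% of all genes), and it was the highest of the 7 libraries in 28 and 0 (16.6% of all genes). In CPM it was the highest in 16 and 0 (7.64%). Its ratio of the S-phase sum to the mitosis sum was 1.37, against 0.408 and 0.395 at Day 3, 0.822 and 0.524 in saline, and 0.849 and 1.01 in the other Day 8 libraries. Rrm1, the large subunit of ribonucleotide reductase, was the 1 S-phase gene of 40 that fell from Day 3 to Day 8 (adjusted p = 0.692, limma). It was at 136 and 127 CPM at Day 3 and at 98.9, 30.1 and 35.0 CPM at Day 8. Against saline, the median log2 fold change of the 40 S-phase genes was -0.28 at Day 8 and 0.12 at Day 3. Without saline replicate 2 these medians were 0.26 and 0.65. Without Day 8 replicate 1, 21 S-phase genes fell from Day 3 and 20 from saline, compared with 1 and 0 with it. All genes called lower then rose from 2.39% to 5.62% and from 1.42% to 3.25%. By contrast, without Day 3 replicate 1, Day 3 replicate 2, Day 8 replicate 2 or Day 8 replicate 3 the count from Day 3 was 0.

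**Figure D4:**
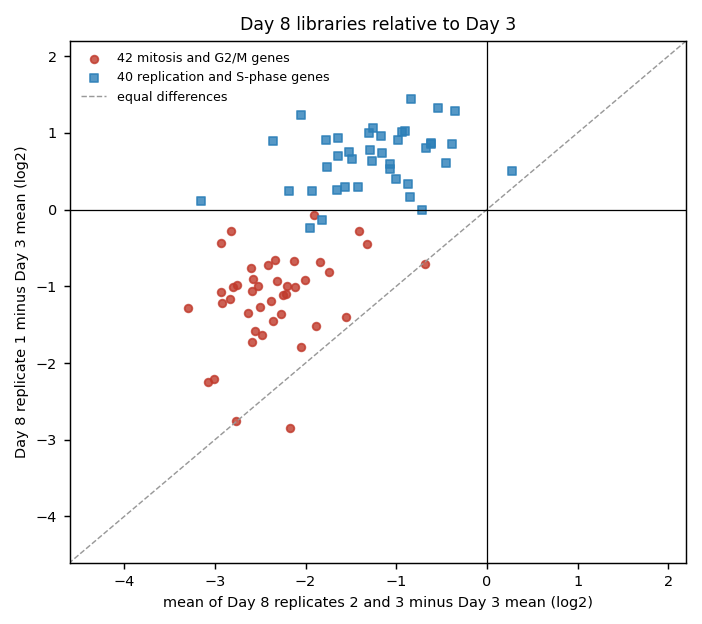
Each point is 1 gene, placed by the mean of Day 8 replicates 2 and 3 minus the Day 3 mean (x axis, log2) and by Day 8 replicate 1 minus the Day 3 mean (y axis, log2). The 42 mitosis genes (red circles) all lie below 0 on the y axis, whereas 36 of the 40 S-phase genes (blue squares) are above both Day 3 libraries in Day 8 replicate 1. The dashed line marks equal differences.

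Lists outside the group placed these changes among other cell-cycle genes. Of 52 other mitosis genes tested 25 fell from Day 3 to Day 8 and none rose (median log2 -1.41), 9 of 53 fell from saline, and 1 of 52 rose at Day 3, where the shares of all genes were 2.39%, 1.42% and 1.87%. The single rise is thus near the background. The count from Day 3 was 8 without either Day 3 library (0.736% and 1.03% of all genes), 12 without Day 8 replicate 2 or 3 (1.77% and 1.58%), and 37 without Day 8 replicate 1 (5.62%). That from saline was 27 without Day 8 replicate 1 (3.25%), 22 without saline replicate 1 (1.13%), 4 and 2 without Day 8 replicates 2 and 3 (1.97% and 0.733%), and 1 without saline replicate 2 (3.44%), where its median was -0.00096. The count higher at Day 3 was 17 without saline replicate 2 (10.3%), 2 without Day 8 replicate 1 (2.22%), and 0 without saline replicate 1 or either Day 3 library. The gene with the smallest P of this list, and the one that rose, was Cdkn3, a phosphatase that acts on cyclin-dependent kinases, at 7.96 and 15.5 CPM in saline, 18.4 and 22.1 CPM at Day 3, and 3.02, 5.28 and 3.32 CPM at Day 8. Its 3 groups did not overlap, and it fell by 2.41 on the log2 scale between the time points (adjusted p = 0.51, limma). For the smaller lists, the share of all genes called lower was 2.39% from Day 3 to Day 8 and 2.62% at Day 3 against saline. The core subunits of the APC/C gave 1 call of 14 (Anapc15, lower from Day 3 to Day 8), and the smallest P among them in any comparison was that of Cdc27 (log2 -0.68 ± 0.25 from Day 3 to Day 8, under 2-fold). Of 22 genes for MuvB, E2F, pocket proteins and NF-Y, which regulate the group, 2 fell between the time points, E2f3 (log2 -1.16 ± 0.43) and Lin9, and none without either Day 3 library or without Day 8 replicate 2 or 3. The count of APC/C subunits lower from Day 3 to Day 8 was 0 without Day 8 replicate 2 or 3, and 1 without Day 8 replicate 1. Against saline, the median log2 fold change of the subunits was 0.22 at Day 3 and -0.15 at Day 8. Without saline replicate 2 these medians were 0.56 and 0.084. Ccnd2, a G1 cyclin, was the 1 call of 8 genes for G1 cyclins and their kinases, lower at Day 3 than in saline (log2 -1.08 ± 0.33), and not called without saline replicate 1 or Day 3 replicate 2. No CDK inhibitor passed, and Cdkn1c, with the smallest P there, was at 201 and 64.2 CPM in saline, 46.2 and 54.0 CPM at Day 3, and 58.2, 111 and 126 CPM at Day 8. None of these passed the adjusted p.

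Markers of cell types and of hormone response moved with the libraries as well, and their part in the changes of the mitosis genes was not tested. In Day 3 replicate 1 a gene is counted as at 0 where its value, taken back from the log2 scale, rounded to 0 reads. The defining markers of epithelium, stroma and smooth muscle were present in every library, with none of the 12, 11 and 10 listed genes at 0. Epithelial markers summed to 1702 and 2271 CPM in saline, 2076 and 2089.8 CPM at Day 3, and 2477, 950.2 and 1883 CPM at Day 8, most abundant being Wfdc2. Smooth muscle markers (most abundant Mylk) summed to 5611 and 3192 CPM in saline, 5134 and 5899.9 CPM at Day 3, and 2990.0, 7301 and 6894 CPM at Day 8, and stromal markers (most abundant Dcn) to between 9013 CPM in Day 8 replicate 1 and 17359 CPM in Day 8 replicate 3. Saline replicate 2 and Day 8 replicate 1 were thus the libraries with the least smooth muscle RNA. The 11 progesterone-induced genes (most abundant Prss29, a uterine gland protease) summed to 203 and 168 CPM in saline, 133 and 138 CPM at Day 3, 142 CPM in Day 8 replicate 1, and 1501 and 1775 CPM in Day 8 replicates 2 and 3. Hand2 is on both this list and the stromal one. Prss28 was at 123 and 186.5 CPM in the latter pair and at 0 in the other 4 count libraries, where a count of 0 allows up to 0.301 to 0.434 CPM. The 11 measured oestrogen-induced genes (most abundant C3) summed to 1231 and 1019 CPM in saline, 1591 and 1445 CPM at Day 3, and 851, 288 and 422 CPM at Day 8, with 3 at 0 in each of the last 2 libraries and 1 in each of the others. C3 itself did not follow that sum, at 264 and 234 CPM at Day 3 and 220 and 343 CPM in Day 8 replicates 2 and 3. Sprr2f of the same list was at 614 and 543 CPM at Day 3 and at 3.25 and 8.85 CPM in Day 8 replicates 2 and 3. The pair of libraries with the lowest mitosis sums was also the pair with high progesterone-induced and low oestrogen-induced sums.

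Markers of other tissues were also unequal between libraries, and the presence of those tissues was not tested. The 12 ovary markers (most abundant Cyp11a1) reached 1316 CPM in Day 8 replicate 2, 378 CPM in saline replicate 2 and 220 CPM in saline replicate 1, and lay between 27.5 and 80.6 CPM elsewhere, with 7 of the 12 at 0 in both Day 3 libraries and in Day 8 replicate 3. In Day 3 replicates 1 and 2 Foxl2 alone gave 44.8 and 72.8 CPM of the ovary sums of 50.1 and 80.6 CPM. The 7 oviduct markers (most abundant Ovgp1) lay between 427 and 837 CPM. Of these, 1 was at 0 in Day 8 replicate 1 and 2 were in Day 8 replicate 3. In Day 8 replicate 3 Sox17 (155.5 CPM) and Pax8 (33.3 CPM) were at their highest, whereas Ovgp1 (235 CPM) was at its lowest and Foxj1 at 0. Adipocyte markers (8 genes, most abundant Fabp4) summed to 1369 and 3222 CPM in saline, 3131 and 401 CPM at Day 3, and 295, 487 and 344 CPM at Day 8. The Day 3 pair, which differed 1.07-fold in its mitosis sum, thus differed widely in adipocyte RNA. Endothelial markers (10 genes, most abundant Esam) lay between 215 and 455 CPM and macrophage markers (8 genes, most abundant C1qb) between 237 and 904 CPM. Lymphocyte and NK cell markers (13 genes, most abundant Klrb1c) summed to 27.2 to 31.9 CPM in 5 libraries and to 70.4 and 90.9 CPM in Day 8 replicates 2 and 3. The 6 measured neutrophil markers (most abundant Retnlg) summed to between 99.99 and 223 CPM. Retnlg was highest in Day 8 replicate 3 (159 CPM), whereas S100a8 and S100a9 were highest in saline replicate 2 (77.8 and 70.5 CPM). Of 5 neutrophil markers tested, 3 were called lower than saline at Day 8 and 2 at Day 3. The shares of all genes were 1.42% and 2.62%, and no neutrophil marker passed the adjusted p.

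Outside all lists, the genes with the pattern most like the mean of the 42, among 14481 compared over 7 libraries, were Dbf4 (r = 0.993), Ugt1a6b (0.993), H2afz (0.988), C330027C09Rik (0.987) and Mphosph10 (0.984). Dbf4, the activating subunit of the replication kinase CDC7, was at 17.5 and 53.4 CPM in saline, 46.6 and 53.2 CPM at Day 3, and 20.9, 10.1 and 8.65 CPM at Day 8. H2afz encodes the histone variant H2A.Z. Ugt1a6b belongs to a family of genes with near-identical copies, and its reads could have been split among them.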

How the data were processed

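Uterine RNA was sequenced from its 3′ ends (Lexogen QuantSeq) in 7 libraries. The submitters' processing notes name Bowtie2, edgeR and the builds mm10 and hg19, with no versions, and the study's methods describe counting of unique and multiple alignments with Bedtools and quantile normalization. Per the file contents, 6 deposited tables hold raw counts per gene, and the seventh, CXCL12 Day 3 replicate 1, was deposited by the authors as log2 of a normalized count plus 1. There, 95.7% of its 4424 low values fell within 0.1 of whole reads once a read was taken as 1.054. Rows with no gene name (2028 in each of 6 tables, holding 0 counts) were dropped, and 35 symbols occurred on more than one row. Rn45s, a ribosomal RNA gene, took 9.36% to 13.0% of each library. Depth was 6908790 to 12308982 counts, 3 counts being 0.244 to 0.434 CPM, and such limits cover counting error only.

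For Day 8 against saline, edgeR 4.0.16 (quasi-likelihood, TMM, filterByExpr) was run on the 6 count tables with 3 groups (3 residual degrees of freedom, common biological coefficient of variation 42.2%). Since Day 3 replicate 1 was on a log2 scale, Day 3 was compared by limma 3.58.1 with a trend on log2(scaled value + 1), quantile-normalized over 7 libraries (values of at least 10 in at least 2 libraries, 4 residual degrees of freedom). A count test of Day 3, by edgeR with counts estimated for that library, served as an alternative. Adjusted p-values are Benjamini-Hochberg over all genes tested. R 4.3.3 was used, and DESeq2 1.42.0 served as an alternative. On simulated data the 2-fold and P rule called 99 of 100 genes changed 4-fold for Day 8 against saline. It called 91 for Day 3 against saline and 96 for Day 8 against Day 3. Of unchanged genes it called 488 of 14515, 517 of 14301 and 411 of 14274, in that order. In the data it called 453, 663 and 684 genes. In each role group the gene with the highest mean CPM and that with the smallest P are described, and in each other cell-cycle list the gene with the smallest P. The members, lists and tests were chosen with earlier results of these data known.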

Additional observations from a re-analysis of the deposited data

Results flagged for a closer look

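For 17 named genes and 2 lists, every Day 3 library was above the saline mean and every Day 8 library below it, on the quantile-normalised log2 scale. The difference between the 2 effects is the Day 8 against Day 3 comparison of the report, in which limma gave none of them an adjusted p under 0.1, and the sign of each effect rests on the mean of 2 saline libraries that lay far apart. The same pattern was present in 28 of the 42 genes, against 3.15% of all genes tested. In the genes described, Day 8 minus Day 3 was -2.75 for Ccnb1, -1.64 for Top2a, -2.30 for Ube2c, -2.06 for Cdc20, -1.85 for Birc5, -2.02 for Cdca8, -1.97 for Cenpf, -2.40 for Cenpa, -2.35 for Nusap1, -2.80 for Hmmr, -1.87 for Prc1, -2.21 for Ect2, -0.69 for Kif20a and -2.76 for Cdc25c. Outside the group it was -2.41 for Cdkn3, -0.68 for Cdc27 and -1.16 for E2f3. Where the median over genes was first taken in each library and then averaged by group, which differs from the median of fold changes given in the report, it was -1.95 for the 42 genes and -1.49 for the other mitosis genes. With groups of 2 and 3 libraries, single libraries were not tested for standing apart.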

How the results depend on the processing

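The fall from Day 3 to Day 8 kept its direction in all 19 members followed under every setting tried (0 of 266 values reversed). On each scale used, both Day 3 libraries were above all Day 8 libraries in 42 of 42 genes. Leaving out 1 library could therefore hardly reverse the fall, and those settings are no test of its direction. Against saline, 7 of 265 values reversed at Day 8, all of them without saline replicate 2. At Day 3, 18 of 266 reversed, most of them without saline replicate 1. The cause was not tested. Depth left at least 4 counts for every member in each of the 6 count tables, and each group held 2 or 3 libraries. Leaving out 1 library at a time gave, for Day 8 against saline, 229 to 1527 genes, 0 to 15 past the adjusted p, 0 to 35 members lower and a member median of -1.997 to -0.22. For Day 3 against saline it gave 219 to 2806 genes, 0 to 2358 past the adjusted p, 0 to 23 members higher, 0 to 14 past the adjusted p and a median of -0.14 to 1.60. For Day 8 against Day 3 it gave 276 to 1662 genes, 0 to 488 past the adjusted p, 20 to 40 members lower and 0 to 18 past the adjusted p. Ranges of log2 fold changes that crossed 0 were, for Day 8 against saline, -1.83 to 0.89 for Cdk1, -2.30 to 0.23 for Ube2c, -1.83 to 0.074 for Birc5, -0.73 to 0.80 for Cdkn1c, -0.83 to 0.39 for Kif20a, -1.77 to 0.24 for Cdc25c, -2.31 to 0.067 for Spc25 and -1.51 to 0.24 for Ndc80. For Day 3 against saline they were -0.14 to 2.50 for Cdk1, -0.43 to 0.78 for Top2a, -0.092 to 2.45 for Ube2c, -0.11 to 1.04 for Cdc20, -0.17 to 1.71 for Birc5, -0.27 to 1.59 for Cdca8, -0.45 to 0.98 for Cenpf, -0.29 to 1.299 for Prc1, -0.11 to 1.40 for Ect2, -0.35 to 0.998 for Rrm1, -0.015 to 0.60 for Cdc27, -0.87 to 0.53 for Mki67, -0.11 to 1.07 for Kif20a, -0.56 to 0.42 for Kif4, -0.12 to 1.45 for Spc25 and -0.25 to 1.16 for Ndc80. With Day 8 replicate 1 counted with Day 3, Day 8 against saline gave 1094 genes, 58 past the adjusted p and 32 members lower, Day 8 against Day 3 gave 1787 genes, 1396 past the adjusted p and 27 members past it, and Day 3 against saline gave 0 members higher, with -0.13 for Top2a, -0.021 for Cdc20, -0.19 for Cenpf, and 0.079 for Cdkn1c at Day 8 against saline. In Day 3 against saline, no quantile normalization gave 1036 genes and -0.085 for E2f3, and members higher numbered 1 with no quantile normalization, edgeR on estimated counts, no trend or no filter. Genes past the adjusted p were 1 (Day 3 against saline) and 2 (Day 8 against Day 3) with no trend, 36 and 27 with no filter, and 49 for Day 8 against saline by DESeq2. The Day 3 mean of the summed level was 3905.3 CPM without Rn45s, 3719.6 with TMM and 3078.2 without Top2a. Saline and CXCL12 went into opposite horns, but the labels do not say whether libraries with the same replicate number share a mouse. Deviations of same-numbered libraries correlated at -0.17 to -0.0035, and the replicate number as a block gave 157 genes and 2 members lower for Day 8 against saline, and 424 genes and 21 members lower for Day 8 against Day 3.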
